A study of Mus musculus with 8 samples.

Results

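Hi-ChIP captures pairs of distant DNA fragments that lie together in the nucleus where a chosen protein is bound. The loops described here are those of the mouse *Arl4c* promoter, that is, all listed loops with an anchor overlapping chr1:88697949-88707244 (mm10). There were 85 such loops among the 249200 distinct loops of 4 lists. The locus was chosen by its measured loop counts and values in these 4 lists, which are therefore given as a description and without a test. Where 4 values stand without names, the order is FOXA1 in liver mets and in tumor, then HNF4G in liver mets and in tumor.

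The 8 samples came from 2 mouse pancreatic cancer cell lines, one from a primary tumor of the KPC mouse model and a matched one from a liver metastasis (liver mets). Each line had FOXA1 and HNF4G Hi-ChIP with 2 replicates per group. All carried the genotype label WT, were untreated, and were grown in DMEM with 10% FBS. FOXA1 was precipitated with the antibody ab5089 and HNF4G with HPA005438. Each group had 1 loop list covering both replicates, so no spread between replicates was known and no test between groups could be run. Each context was represented by 1 cell line, so a difference between the lines cannot be told apart from a difference between tumor and metastasis in general. These 8 samples hold no expression data, and the contacts do not say how strongly *Arl4c* was transcribed. The depth of the libraries is unknown.

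FOXA1 is a forkhead factor that can bind closed chromatin, and HNF4G is a nuclear receptor of the hepatocyte nuclear factor 4 group. Enhancers can lie far from the promoter they contact, on either side of a gene and inside other genes.

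*Arl4c* (ENSMUSG00000049866.12) lies on the minus strand at chr1:88673125-88702221, with annotated transcript starts at 88702221 and 88701876 (GENCODE M21). The interval held 2 anchors. The start anchor, at chr1:88697949-88703232, was 5284 bp wide and held both starts and the whole of the single-exon coding transcript. The upstream anchor, at chr1:88703949-88707244, was 3296 bp wide, intergenic, and began 1728 bp before the first start. Because the gene reads toward lower coordinates, partners at lower coordinates lie downstream of it. The strongest contacts were all on that side, between the genes *Spp2* and *Gm19589*, and the working name of an upstream domain therefore went against the annotation. The set of 16 anchors at chr1:88391942-88566527, 174.6 kb long, is called the downstream block here. Its limits were set after the values had been seen.

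The promoter sequence is shown because it lies in the start anchor, at the end that the loops have in common, and that of *Glrp1* because it is the only coding gene start in the block that reached the highest value. Both are the 250 bases before the RefSeq start (GRCm38.p6, minus strand, 5′ to 3′), at chr1:88702192-88702441 and chr1:88510067-88510316. Capitals mark matches to the motifs listed after the sequences.
Arl4c: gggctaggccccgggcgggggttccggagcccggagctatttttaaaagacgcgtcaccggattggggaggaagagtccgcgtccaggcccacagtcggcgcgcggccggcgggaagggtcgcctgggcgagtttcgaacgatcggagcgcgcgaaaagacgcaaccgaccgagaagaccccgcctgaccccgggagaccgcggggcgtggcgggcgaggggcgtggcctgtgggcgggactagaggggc
Glrp1: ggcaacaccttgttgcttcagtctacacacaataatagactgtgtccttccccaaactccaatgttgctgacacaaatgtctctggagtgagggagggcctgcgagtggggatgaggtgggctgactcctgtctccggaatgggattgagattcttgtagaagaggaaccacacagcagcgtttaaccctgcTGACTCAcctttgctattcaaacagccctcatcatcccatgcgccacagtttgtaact

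The *Arl4c* promoter window of 300 bases had a GC content of 74% and 44 CpG dinucleotides, against medians of 52.7% and 7 over 32851 RefSeq promoter windows. It held more CpG than 97.8% of them. Motifs were searched on both strands as TGTTTAC or TGTTTGC (FOXA), CAAAGTCCA or CAAAGGTCA (HNF4), TGANTCA (AP-1), CTTTGAT (TCF/LEF) and a CTCF core. No match to any of them lay in the *Arl4c* window. Of all windows, 8.48% held a FOXA match, 0.95% an HNF4 match, 7.81% an AP-1 match, 3.73% a TCF/LEF match and 0.557% a CTCF match. The *Glrp1* window held 1 AP-1 match.

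The next sequences come from the anchors whose loop with the promoter reached the highest value of at least 1 list, and from the upstream anchor. Each is a stretch of 60 bases of GRCm38 around the FOXA match nearest the middle of its anchor, with the match in capitals, and the last one holds the single HNF4 match among these anchors. Stretches that touch a UTR were left out, which left none of the 3 FOXA matches of the start anchor.
274 kb downstream, intergenic (chr1:88428428-88428487, plus strand): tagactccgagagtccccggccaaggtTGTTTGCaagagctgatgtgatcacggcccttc
248 kb downstream, *Gm29538* intron (chr1:88453973-88454032, minus strand): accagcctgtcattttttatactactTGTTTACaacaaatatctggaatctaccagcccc
227 kb downstream, intergenic (chr1:88475131-88475190, plus strand): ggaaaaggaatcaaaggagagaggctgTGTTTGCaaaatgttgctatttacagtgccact
194 kb downstream, *Glrp1* intron (chr1:88508746-88508805, minus strand): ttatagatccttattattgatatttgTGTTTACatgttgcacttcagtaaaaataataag
142 kb downstream, *Gm19589* exon (chr1:88560574-88560633, minus strand): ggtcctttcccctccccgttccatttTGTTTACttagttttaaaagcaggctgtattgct
upstream anchor, intergenic (chr1:88704557-88704616, plus strand): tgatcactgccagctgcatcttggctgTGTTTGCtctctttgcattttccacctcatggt
274 kb downstream, HNF4 (chr1:88429514-88429573, minus strand): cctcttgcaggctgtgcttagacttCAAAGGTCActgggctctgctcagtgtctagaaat

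In the block, 13 of 16 anchors (81.3%) held a FOXA match, against 62.5% of the 30542 anchors of the 4 lists, at 0.347 and 0.407 matches per kb. An HNF4 match was in 2 of 16 (12.5%) against 8.87% of all anchors. An AP-1 match was in 13 of 16 against 63.6%, at 0.366 and 0.432 matches per kb. For FOXA and AP-1 the share of anchors was thus higher in the block, but the matches per kb were lower. TCF/LEF matches were in 9 of 16 anchors (56.3%) against 30.6%, at 0.256 and 0.142 per kb. No CTCF match was found in the block or at the promoter, against 3.81% of all anchors. The widest anchor of the block, 8114 bp over *Gm28888* and *Gm29538*, held neither a FOXA nor an HNF4 match, whereas 94.0% of the 519 anchors within 20% of its width held a FOXA match. The matches are letters in the reference and not measured binding.

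The *Arl4c* promoter had 58 loops in the FOXA1 liver mets list (95% Poisson interval 44.0 to 75.0) and 52 in that of FOXA1 tumor (38.8 to 68.2). For HNF4G it had 37 in liver mets and 37 in tumor (both 26.1 to 51.0). These intervals cover counting error only and treat loops as independent, although the loops share an end. The lists themselves held 125623, 104136, 78098 and 76323 loops. Per 10000 listed loops the promoter had 4.62, 4.99, 4.74 and 4.85, so its share of each list was nearly the same in all 4. For FOXA1 the liver mets list had 1.12 times the promoter loops of tumor (95% interval 0.754 to 1.65) beside 1.21 for the whole lists, and for HNF4G this ratio was 1 (0.617 to 1.62) beside 1.02. The ratio of FOXA1 to HNF4G was 1.41 in tumor (0.904 to 2.20) beside 1.36, and 1.57 in liver mets (1.02 to 2.44) beside 1.61. Divided by list size, the 4 ratios were 0.925, 0.977, 1.03 and 0.975, and each interval included 1.

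Few anchors had as many loops. In the FOXA1 liver mets list the start anchor had 32 loops, where the median anchor had 7, and 340 of 29572 anchors had more. It had 28 in FOXA1 tumor, with 273 anchors above it. For HNF4G it had 18 in liver mets and 20 in tumor, with 650 and 591 anchors above it. The upstream anchor had 27, 25, 20 and 18 loops, including the 1 loop that joins it to the start anchor. Both anchors thus had several times the median of 4 to 7 loops, and neither accounted for the contacts alone. These ranks were not adjusted for anchor width. In FOXA1 liver mets 19.4% of all pairs of 135 to 312 kb were listed. With at least 1 anchor as wide as the upstream anchor the share was 28.3%.

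Most contacts ran to lower coordinates, the downstream side. These were 43 of 58 loops in FOXA1 liver mets (74.1%, Wilson 95% interval 61.6 to 83.7), 40 of 52 in FOXA1 tumor (76.9%, 63.9 to 86.3), 28 of 37 in HNF4G liver mets (75.7%, 59.9 to 86.6) and 26 of 37 in HNF4G tumor (70.3%, 54.2 to 82.5). The median span, the distance between anchor middles, was 261, 244, 230 and 252 kb in the same order, against 164, 141, 114 and 131 kb over the whole lists. The promoter loops were thus longer than the typical loop of their list.

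The files give each loop a value that was read as −log10 of an adjusted p and that ends at 20. It comes in steps. Among loops of 200 to 300 kb, 80.6% to 88.3% of a list lay below 2 and none between 2 and 2.5, so that 2 separates the lowest step from the rest, and 4 was used as a stricter minimum. The steps lie at different heights in the 4 lists, so a given value may rest on different evidence from list to list.

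At the *Arl4c* promoter, 31 loops of FOXA1 liver mets (53.4%), 27 of FOXA1 tumor (51.9%), 11 of HNF4G liver mets (29.7%) and 15 of HNF4G tumor (40.5%) had a value of 2 or more. Over the whole lists the shares were 9.33%, 7.84%, 7.21% and 7.32%. A value of 4 or more was held by 20 loops (34.5%), 16 (30.8%), 2 (5.41%) and 10 (27.0%), against 2.58%, 1.75%, 1.78% and 1.84% of all loops. High values were therefore denser at this promoter than in the lists as a whole, and least so in HNF4G liver mets, where they were 2 loops to 1 partner. The start anchor held 12 loops with a value of 4 or more in FOXA1 liver mets, and 19 anchors of that list held more. In FOXA1 tumor the upstream anchor held 10, and 8 anchors held more. In HNF4G tumor the start anchor held 6, and 35 anchors held more. In HNF4G liver mets each promoter anchor held 1, and 470 anchors held more. These counts include the loop between both promoter anchors where it passed.

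**Figure D1:**
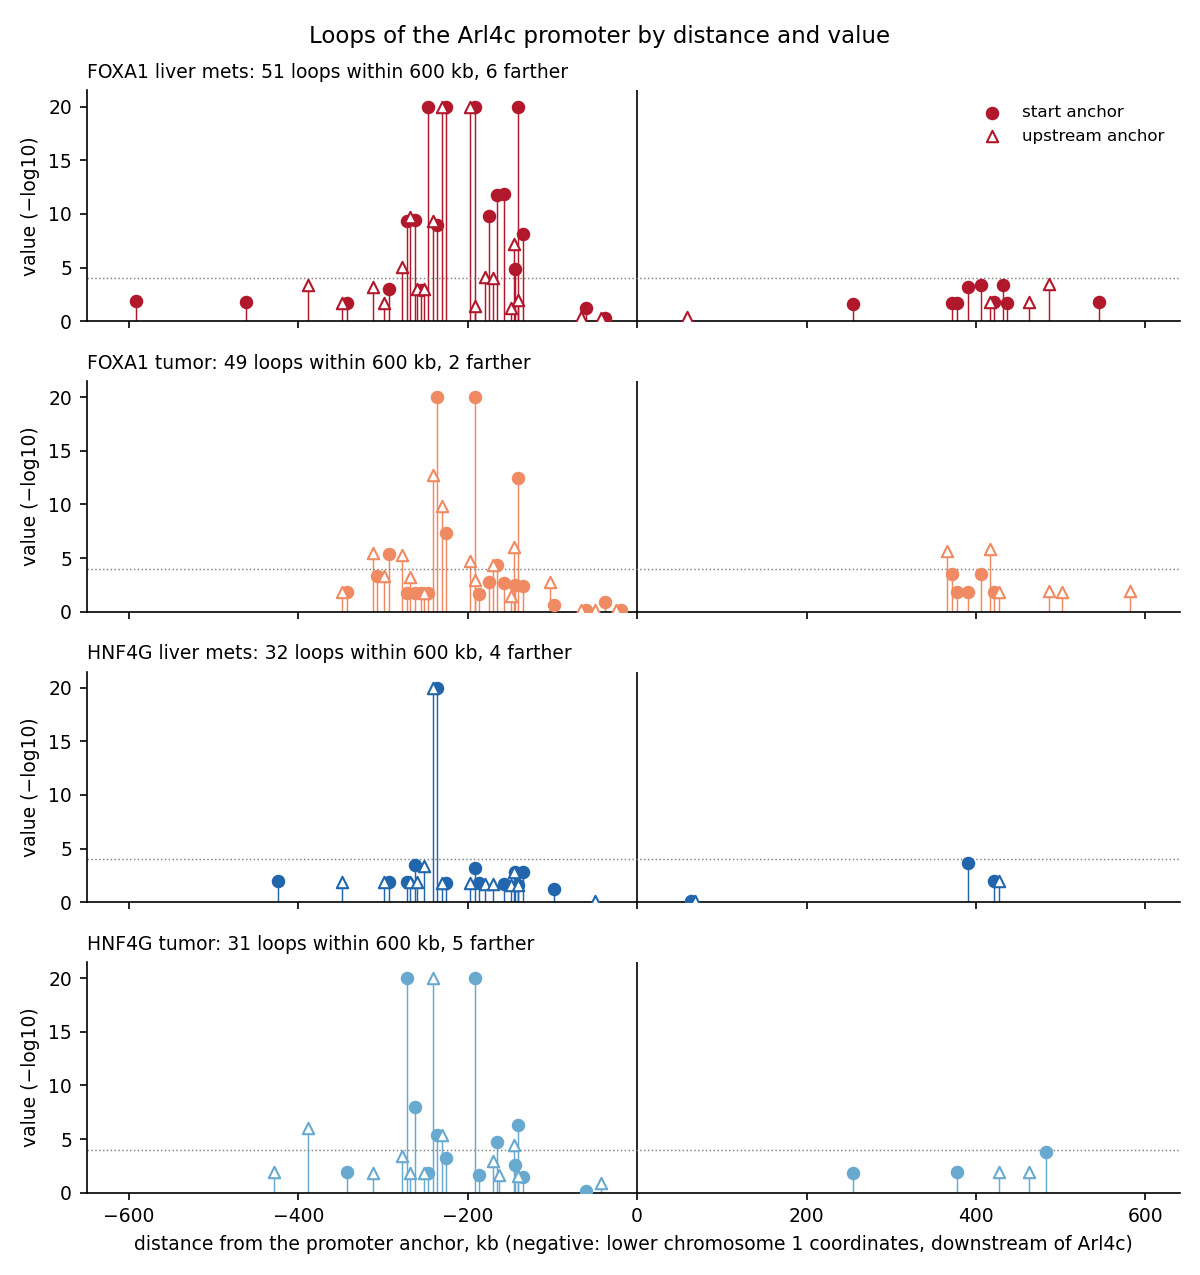
Values of the loops of the *Arl4c* promoter (vertical axis, −log10, ending at 20) against the distance of the partner in kb, one panel per list. Filled circles are loops of the start anchor, open triangles loops of the upstream anchor, and the dotted line marks a value of 4. Loops farther than 600 kb (6, 2, 4 and 5 by list) and the loop between both promoter anchors are not drawn. All values of 20 stand 142 to 274 kb downstream of the *Arl4c* start, and of the 4 lists only FOXA1 tumor has loops above the line on the upstream side.

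The highest value, 20, was reached by 6 promoter loops in FOXA1 liver mets (of 328 such loops in the list), 2 in FOXA1 tumor (of 114), 2 in HNF4G liver mets (of 76) and 3 in HNF4G tumor (of 111). The strongest partner of a list is therefore a tie. In FOXA1 liver mets the start anchor reached 20 with the anchors 248, 227, 194 and 142 kb downstream, and the upstream anchor with those at 227 and 194 kb. In FOXA1 tumor the start anchor reached it with those at 238 and 194 kb. In HNF4G liver mets both promoter anchors reached it with the anchor at 238 kb and with no other. In HNF4G tumor the start anchor did so with those at 274 and 194 kb and the upstream anchor with that at 238 kb. The partners at 194 kb (*Glrp1*) and 238 kb (*Gm28888* and *Gm29538*) each reached the ceiling in 3 of 4 lists.

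The anchor at 194 kb, chr1:88505619-88511595, covers the start of *Glrp1*, which encodes a glutamine repeat protein. Its loop with the start anchor had values of 20 in both FOXA1 lists, and for HNF4G of 3.17 in liver mets and 20 in tumor. With the upstream anchor FOXA1 had 20 in liver mets and 4.75 in tumor, and HNF4G had 1.76 in liver mets and no listed loop in tumor. Through the start anchor HNF4G liver mets was the low list, and through the upstream anchor HNF4G tumor had no loop at all.

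The anchor at 238 kb, chr1:88460632-88468745, covers exons and starts of *Gm28888* and *Gm29538*, gene models on opposite strands. Its loop with the start anchor had values of 8.93 in liver mets and 20 in tumor for FOXA1, and of 20 and 5.38 for HNF4G. With the upstream anchor the values were 9.32 and 12.7 for FOXA1 and 20 in both HNF4G lists. All 8 combinations of list and promoter anchor were listed with values above 4, and no other partner had that. It was also the only partner above 4 in HNF4G liver mets.

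The anchor at 227 kb, chr1:88473561-88477091, is intergenic. Its values with the start anchor were 20 in liver mets and 7.30 in tumor for FOXA1, and 1.84 and 3.23 for HNF4G. With the upstream anchor they were 20 and 9.85 for FOXA1, and 1.84 and 5.36 for HNF4G. Through both promoter anchors the order of the lists was the same, with FOXA1 liver mets highest and HNF4G liver mets lowest.

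The anchor at 142 kb, chr1:88558670-88561789, lies on exons of *Gm19589*, a gene known only by its model number. Its values with the start anchor were 20 in liver mets and 12.4 in tumor for FOXA1, and 1.59 and 6.29 for HNF4G. With the upstream anchor they were 7.17 and 6.04 for FOXA1, and 2.80 and 4.45 for HNF4G. Again FOXA1 liver mets was highest and HNF4G liver mets lowest through both anchors.

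The anchors at 274 kb (chr1:88427157-88429645, intergenic) and 248 kb (chr1:88451050-88456627, in an intron of *Gm29538*) each reached the ceiling once. With the start anchor the first had 9.38 in liver mets and 1.77 in tumor for FOXA1, and 1.87 and 20 for HNF4G. With the upstream anchor it had 5.01 and 5.34 for FOXA1, was not listed in HNF4G liver mets and had 3.43 in HNF4G tumor. Through the start anchor this partner was thus high in different lines for the 2 factors. Through the upstream anchor the 2 FOXA1 values were close, and HNF4G was listed in tumor only. The second had 20 in liver mets and 1.74 in tumor for FOXA1 with the start anchor, was not listed in HNF4G liver mets and had 1.83 in HNF4G tumor. With the upstream anchor it had 3.01 and 1.74 for FOXA1, and 3.43 and 1.85 for HNF4G. For both, the ceiling was reached in 1 list and through 1 promoter anchor only, while the neighbouring promoter anchor a few kilobases away had 3.43 and 3.01 there.

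**Figure D2:**
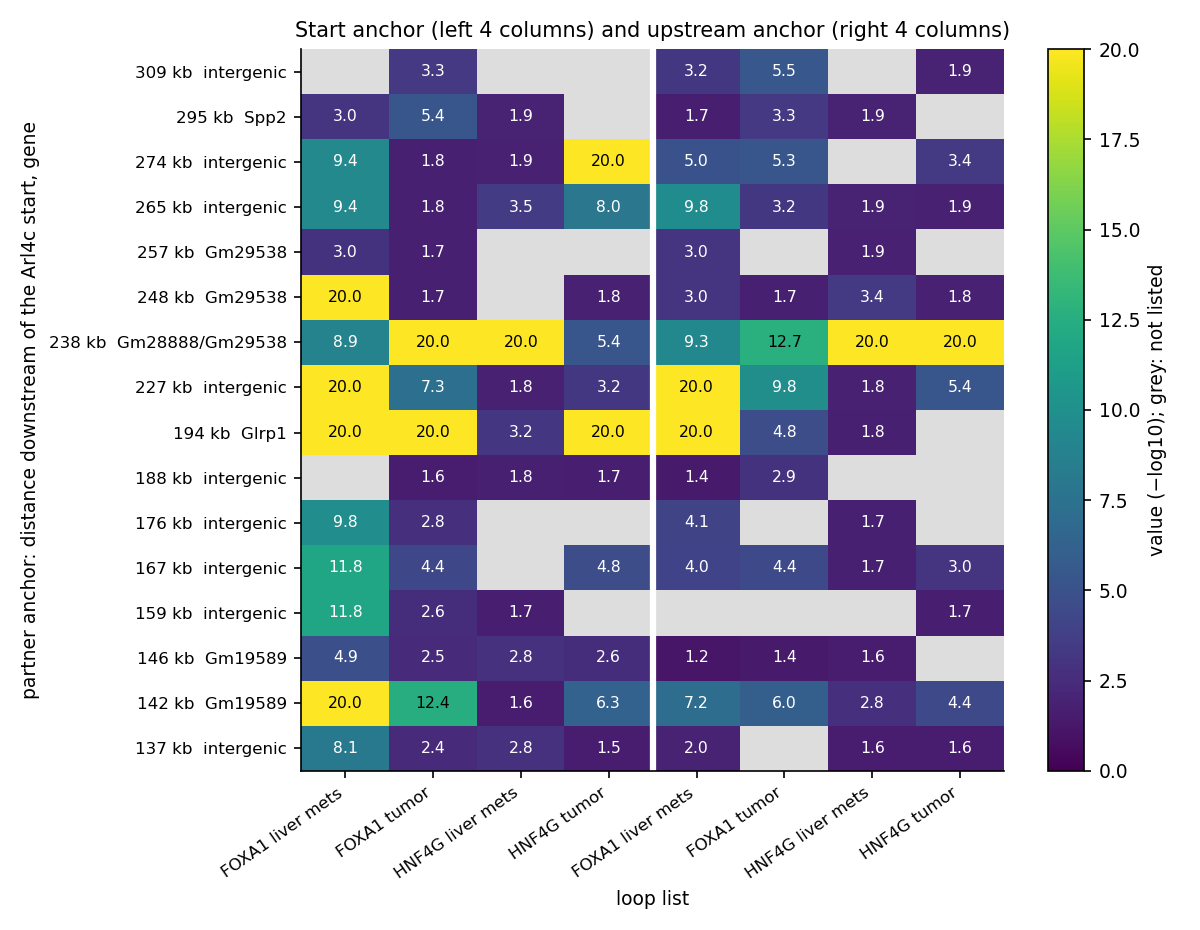
Values (colour, −log10) of the loops between each of the 16 anchors of the downstream block (rows, by distance in kb from the *Arl4c* start, with the overlapping gene) and the start anchor (left 4 columns) or the upstream anchor (right 4 columns) in each list. Grey marks pairs that were not listed. The row at 238 kb is listed in all 8 columns with values from 5.38 to 20, and the HNF4G liver mets columns do not exceed 3.48 in any other row.

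The block was nearly filled with contacts. Its 16 anchors and the 2 promoter anchors form 32 pairs, and every pair was listed in at least 1 list. For FOXA1, liver mets listed 29 of 32 (90.6%) and tumor 28 (87.5%), and for HNF4G 23 (71.9%) and 21 (65.6%). Of all anchor pairs on the genome with spans of 135 to 312 kb, 139305 in number, 19.4%, 16.1%, 11.3% and 11.4% were listed. Among pairs with at least 1 promoter anchor the shares were 19.5%, 16.5%, 11.9% and 12.3%, and among pairs with at least 1 anchor as wide as the upstream anchor 28.3%, 23.2%, 16.4% and 16.9%. The block pairs exceeded all 3 of these in each list. Since the block was drawn around listed loops, these shares describe it and are no test.

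Values in the block were also high for their span. Of the listed block loops, 26 of 29 in FOXA1 liver mets (89.7%), 21 of 28 in FOXA1 tumor (75.0%), 8 of 23 in HNF4G liver mets (34.8%) and 13 of 21 in HNF4G tumor (61.9%) had a value of 2 or more, against 20.9%, 17.3%, 14.1% and 14.8% of loops of like span. At 4 or more there were 20 (69.0%), 13 (46.4%), 2 (8.70%) and 9 (42.9%), against 5.30%, 3.93%, 3.18% and 3.36%. The median value for FOXA1 was 8.09 in liver mets and 3.32 in tumor, and for HNF4G 1.87 and 3.23, against 1.56, 1.67, 1.81 and 1.79 in loops of like span. HNF4G liver mets thus listed many of the same anchor pairs, but with a median close to that of other loops of this length.

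The block held 20 of the 20 promoter loops with a value of 4 or more in FOXA1 liver mets, 13 of 16 in FOXA1 tumor, 2 of 2 in HNF4G liver mets and 9 of 10 in HNF4G tumor. The exceptions in FOXA1 tumor were 2 loops to *Sh3bp4* and the loop between both promoter anchors, at 4.59. That short loop had 0.630, 2.85 and 1.65 in FOXA1 liver mets, HNF4G liver mets and HNF4G tumor. In HNF4G tumor the exception was a loop of the upstream anchor to an intron of *Trpm8*, the cold-sensing channel, 385 kb downstream, with a value of 6.04. The same loop had 3.37 in FOXA1 liver mets and was not listed in the other lists.

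Closer and on the other side, contacts were sparser. Between the block and the promoter, 5 anchors form 10 pairs, of which FOXA1 listed 4 in liver mets and 8 in tumor, and HNF4G 2 in each, with no value above 2.74. Pairs of like span were listed at 43.6%, 38.9%, 31.8% and 29.2%, so only FOXA1 tumor was above them. The median values of the listed loops were low, at 0.341, 0.123, 0.708 and 0.558, beside 0.0889, 0.123, 0.146 and 0.171 in loops of like span. The higher share in FOXA1 tumor thus rested mostly on loops of low value. On the upstream side, between *Arl4c* and *Sh3bp4*, 7 anchors form 14 pairs, of which 2, 0, 2 and 1 were listed, against 28.3%, 24.3%, 18.5% and 17.6%. In the mirror image of the block, at the same 135 to 312 kb but upstream, there were 4 anchors and 8 pairs, and 1, 0, 0 and 1 were listed. The upstream side thus had 4 anchors at that distance where the block had 16.

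Beyond that gap the promoter met *Sh3bp4*, an adaptor of receptor endocytosis, whose 8 anchors at chr1:89068266-89154282 lie upstream of *Arl4c*. Of 16 pairs, 8, 8, 3 and 2 were listed (50%, 50%, 18.8% and 12.5%), against 9.91%, 7.70%, 4.97% and 5.40% of pairs of like span. The highest values were 5.71 at the *Sh3bp4* start (chr1:89068266-89075895, 370 kb) and 5.87 in an intron (chr1:89117193-89127343, 420 kb), both with the upstream anchor in FOXA1 tumor. In FOXA1 liver mets these same loops were not listed and 1.79, and the highest value at *Sh3bp4* was 3.40. In HNF4G liver mets it was 3.68, and in HNF4G tumor 1.97. The *Sh3bp4* loops were thus as many in both FOXA1 lists, but above 4 in tumor only.

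Still farther upstream, 5 partner anchors overlapped *Agap1*, a GTPase-activating protein for ARF proteins. With the promoter they had 3 loops in each HNF4G list and none in either FOXA1 list. The values were 1.99 except for 1 loop at 3.99 in HNF4G liver mets. Of the 30 pairs of the promoter with 15 anchors in the gene, 10% were listed in each HNF4G list and 0% in each FOXA1 list. Pairs of like span were listed at 3.71%, 2.63%, 1.68% and 1.87%. Contacts of *Agap1* were not limited to HNF4G. Its anchor at chr1:89512148-89517302 had a FOXA1 liver mets loop to the block anchor at 274 kb, with a value of 6.38. *Agap1* was named after these values were seen, and the difference between factors was not tested.

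**Figure D3:**
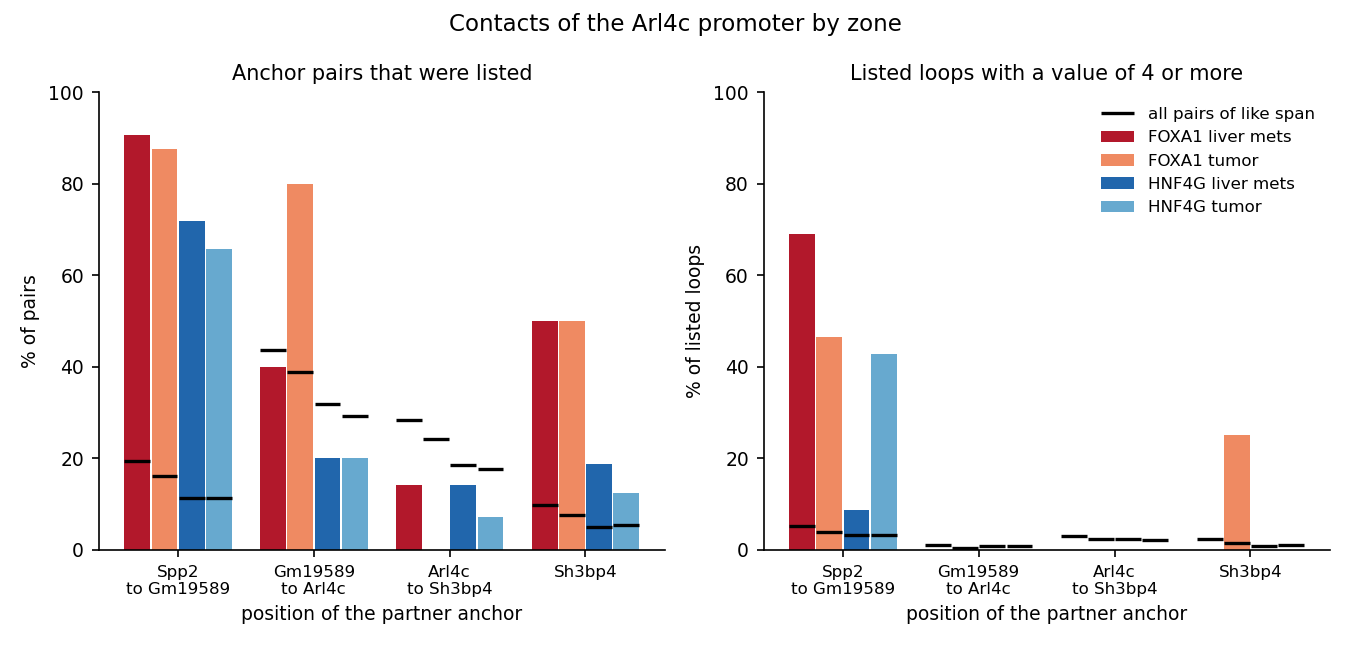
Share of possible anchor pairs that were listed (left) and share of listed loops with a value of 4 or more (right) for 4 stretches of partners of the *Arl4c* promoter, in %, with one bar per list. Black lines give the share over all anchor pairs, or all listed loops, of the same span range on the genome. The *Spp2* to *Gm19589* bars rise to 65.6% to 90.6% against 11.3% to 19.4%, and the *Arl4c* to *Sh3bp4* bars stay under their lines.

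Of the 85 distinct loops, 34 were in 1 list, 18 in 2, 18 in 3 and 15 in all 4 (17.6%, Wilson 95% interval 11 to 27.1). Over all 249200 loops 5.28% were in all 4, and in the span range of the block 2.06%. The block held 14 of the 15, that is 14 of its 32 loops (43.8%), and the other was the loop between both promoter anchors. Loops in 1 list were longer, with a median span of 564 kb, against 225 kb for those in all 4. By pattern, 12 were in FOXA1 liver mets alone, 9 in FOXA1 tumor alone, 9 in both FOXA1 lists, 6 in HNF4G liver mets alone, 7 in HNF4G tumor alone and 1 in both HNF4G lists.

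The FOXA1 lists shared 39 promoter loops, 67.2% of those in liver mets and 75.0% of those in tumor. The HNF4G lists shared 19, 51.4% of each. Between factors, 24 loops were shared in tumor (46.2% of FOXA1 and 64.9% of HNF4G) and 26 in liver mets (44.8% and 70.3%). Over the whole lists the FOXA1 lists shared 34.0% and 41.1% of their loops and the HNF4G lists 32.9% and 33.6%. Between factors the shares of FOXA1 and HNF4G were 28.4% and 38.7% in tumor and 27.8% and 44.8% in liver mets. Among loops in the span range of the block they were lower, from 20.7% to 35.6%. The promoter loops were thus shared more often than loops at large in each of these pairs of lists, as a description. Across lines, FOXA1 liver mets and HNF4G tumor shared 27 promoter loops (46.6% and 73.0%). FOXA1 tumor and HNF4G liver mets also shared 27 (51.9% and 73.0%). Sharing between factors was thus no greater within a line than across lines. Shares over the whole lists were not taken for the pairs across lines.

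Taken by partner, the 85 loops reached 57 anchors outside the promoter, and 27 of these met both promoter anchors. Through either promoter anchor, 14 were in all 4 lists, 12 of them in the block. The other two were an intronic *Trpm8* anchor at 345 kb, with values from 1.67 to 1.92, and an intronic *Sh3bp4* anchor at 431 kb, with values from 1.88 to 3.40. Just 4 partners were listed with both promoter anchors in every list, those at 265, 238, 227 and 142 kb. Another 23 were in 1 list. Only 12 of 57 partners (21.1%) lay within 2 kb of a transcript start, against 45.2% of all anchors, so the promoter met mostly sequence away from starts.

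The block was not a place where all contacts led to *Arl4c*. It had 302 loops in liver mets and 211 in tumor for FOXA1, and 151 and 141 for HNF4G, of which 29, 28, 23 and 21 ended at the promoter (9.60%, 13.3%, 15.2% and 14.9%). Another 80, 75, 55 and 48 stayed inside the block. Among values of 4 or more the picture differed, with 20 of 36, 13 of 14, 2 of 2 and 9 of 15 ending at the promoter. Every block loop at the ceiling, 6, 2, 2 and 3 by list, ended there.

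The strong block loops with other ends were 16 in liver mets and 1 in tumor for FOXA1, and 0 and 6 for HNF4G. The highest joined neighbours inside the block, at 12.5 between the anchors at 248 and 238 kb and at 10.0 between those at 238 and 227 kb, both in FOXA1 liver mets. In that list 5 block loops to *Sh3bp4* had values from 6.08 to 6.30 and spans from 563 to 685 kb. In HNF4G tumor 2 block loops to an intron of *Sh3bp4* had 6.62 and 6.66. Block and *Sh3bp4* thus also met each other past the *Arl4c* promoter.

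**Figure D4:**
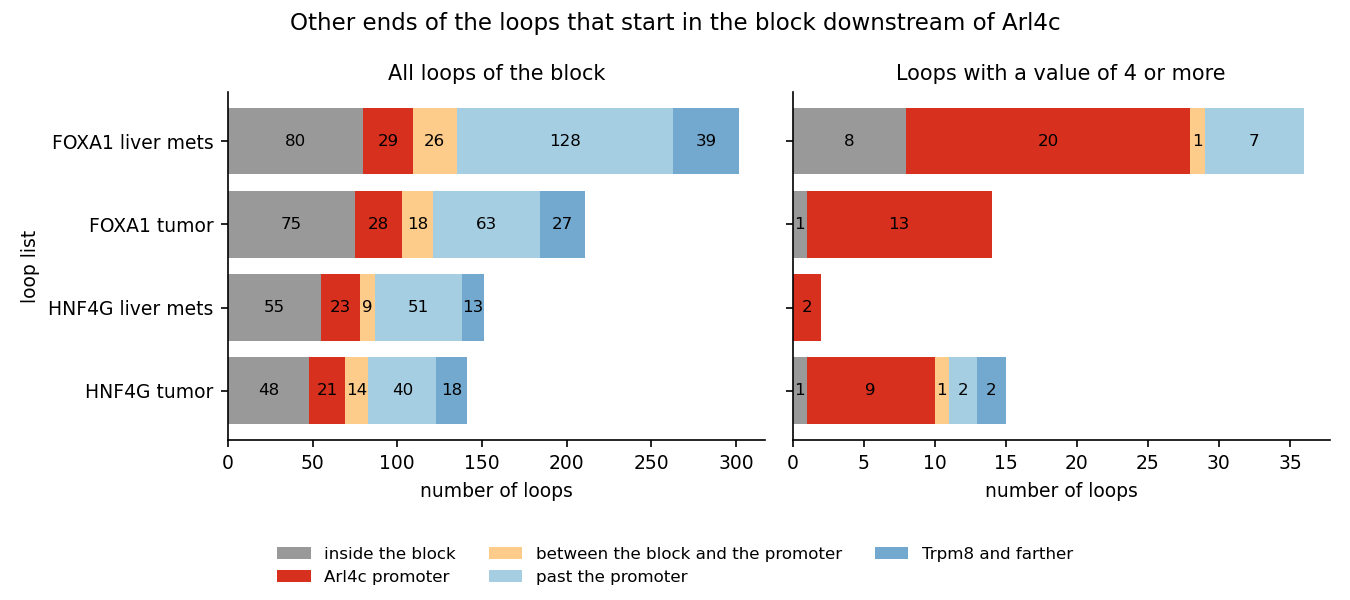
Number of loops (horizontal axis) of the downstream block in each list, coloured by where the other end lies, for all loops (left) and for those with a value of 4 or more (right). The *Arl4c* promoter takes 29 of 302, 28 of 211, 23 of 151 and 21 of 141 loops on the left, and 20 of 36, 13 of 14, 2 of 2 and 9 of 15 on the right.

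The next anchor on each side had fewer loops, and fewer at 4 or more, than either promoter anchor in each list. Both next anchors were also narrower than either promoter anchor, and the counts were not adjusted for width. The next anchor on the downstream side, in an *Arl4c* intron 21.2 kb away (chr1:88680301-88681823), had 7 loops in liver mets and 6 in tumor for FOXA1, and 2 and 3 for HNF4G, none at 4 or more. Of these, 2, 3, 0 and 3 went to the block. The next on the upstream side, which is intergenic and starts at chr1:88744895, had 12, 11, 13 and 9 loops, with 2, 0, 0 and 0 at 4 or more. Its loops to the block numbered 3, 2, 1 and 3, none of them at 4 or more, and it had no loop with the promoter anchors. The contacts with the block thus dropped from 14, 16, 11 and 11 at the start anchor and 15, 12, 12 and 10 at the upstream anchor to 3 or fewer at the next anchor on either side. Farther out some counts were higher again and others were not. The anchor starting at chr1:88654865, near the starts of *Gm29336* and *Gm38130*, had 4, 4, 8 and 4 loops. Of these, 3, 1, 1 and 3 went to the block, none at 4 or more. The intergenic anchor starting at chr1:88662168 had 17, 7, 3 and 4 loops, 9, 4, 0 and 2 of them to the block and none at 4 or more. The one starting at chr1:88763102 had 17, 14, 18 and 8, with 6, 2, 1 and 0 to the block, and its 18 in HNF4G liver mets equalled the start anchor. The one starting at chr1:88771907 had 24, 21, 15 and 11, with 8, 3, 5 and 0 to the block, and reached 20 in FOXA1 liver mets with 1 loop. Of the block loops of these anchors 1 had a value of 4 or more, between chr1:88763102 and the anchor at 227 kb, with 5.15 in FOXA1 liver mets.

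The 2 promoter anchors shared 18 partners in each FOXA1 list and 8 in each HNF4G list. The start anchor had the higher value for 9, 6, 5 and 4 of them and the upstream anchor for 6, 10, 2 and 4, with ties for the rest. Partners at 4 or more through both were 8, 5, 1 and 2. No list except FOXA1 tumor had more strong partners at the upstream anchor than at the start anchor, where the counts were 9 and 6.

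Among promoter anchors elsewhere, those with loop counts closest to the start anchor were at *Gm12347* (chromosome 11), *Gramd4* (chromosome 15), *Gm26834* (chromosome 16) and *Mir7677* (chromosome 17), tied at a summed absolute difference of 4 loops over the 4 lists. Their loops at 4 or more were 7, 2, 0 and 0 at *Gm12347*, 1, 1, 0 and 3 at *Gramd4*, 8, 8, 4 and 3 at *Gm26834*, and 0 in all lists at *Mir7677*. The start anchor of *Arl4c* had 12, 7, 1 and 6. A like number of loops therefore came with very different values.

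The 8 related genes on the list had fewer strong contacts than *Arl4c*, a locus chosen by its counts and values. Few or no such loops was usual for an anchor. Those with at least 1 loop at 4 or more were 3546 of 29572, 2376 of 29091, 1912 of 27730 and 1811 of 27239 by list. *Arl4a* and *Arl4d*, small GTP-binding proteins of the ARF family, had 6, 3, 3 and 4 and 8, 10, 6 and 6 loops by list, none at 4 or more. Of the cytohesins, exchange factors that load ARF proteins with GTP, *Cyth1* had 81, 51, 30 and 37 loops over 3 promoter anchors, with 2, 0, 1 and 0 at 4 or more, and *Cyth3* had 18, 10, 14 and 6 with none. *Cyth2* had 2, 7, 3 and 5 loops, none at 4 or more, and *Cyth4* 15, 12, 7 and 8, with 1, 1, 0 and 0. *Arf6*, a GTPase of the plasma membrane, had 15, 14, 9 and 10, with 1, 0, 0 and 0 at 4 or more, and *Arf1* had 9, 4, 5 and 2 with none. *Cyth1* thus exceeded *Arl4c* in loops in FOXA1 liver mets, but none of these genes had more than 2 strong loops in a list.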

How the data were processed

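Hi-ChIP data for 8 samples in 4 groups of 2 replicates were analysed from 1 loop list per group, with groups taken from the sample titles. The authors aligned reads to mm10 with HiC-Pro 3.1.0 (version from the submitters' processing notes), assigned them to DpnII fragments, removed duplicates and called loops with hichipper. How replicates were joined is not given in the sources used here. Each loop carries an unnamed value, as deposited, that was read as −log10 of an adjusted p from its distribution alone (ceiling 20). The deposited display score followed from that value in all loops and was not used further. Paired reads and depth were not analysed here.

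The locus, gene lists and comparisons were chosen with earlier results of these data known, and the zones and the block after the values were seen. The interval held the same 2 anchors as those within 2 kb of an *Arl4c* start (GENCODE M21, GRCm38, the assembly of mm10). Coordinates count from 1. Counts had exact Poisson intervals, ratios exact (Clopper-Pearson) intervals given their sum, and shares Wilson intervals, all at 95%. Genes named were *Arl4c*, genes within 2 kb of partners in all 4 lists or at a list's highest value, the next anchors on each side, the promoter anchors with the closest loop counts (4 tied for 3 places) and 8 related genes (*Arl4a*, *Arl4d*, *Cyth1* to *Cyth4*, *Arf6* and *Arf1*). Others, such as *Trpm8*, *Sh3bp4* and *Agap1*, were named after their values were seen. Python 3.11.15, pandas 2.3.3, numpy 2.4.6, scipy 1.17.1 and matplotlib 3.10.9 were used, and the loop selection was tested on simulated data.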

Additional observations from a re-analysis of the deposited data

Results flagged for a closer look

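The change from tumor to liver mets went opposite ways for the 2 factors in the number of *Arl4c* promoter loops with a value of 4 or more. FOXA1 had 16 in tumor and 20 in liver mets, and HNF4G had 10 in tumor and 2 in liver mets. For FOXA1 the count in liver mets was 1.25 times that in tumor (95% interval 0.615 to 2.58), below the 1.78 of all FOXA1 loops at 4 or more. For HNF4G this ratio was 0.2 (0.0213 to 0.939), beside 0.987 over the whole lists. Relative to the lists both ratios were thus below that of all loops, and for FOXA1 the interval included it. The intervals treat loops as independent, although the 2 HNF4G liver mets loops met the same partner. The count was also flagged because it differed between groups, so its interval is no evidence of a change. With 1 list per group this difference was not tested.

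Single loops of the start anchor also ran in opposite directions for the 2 factors, again without a test. With the intergenic anchor 274 kb downstream, FOXA1 went from 1.77 in tumor to 9.38 in liver mets and HNF4G from 20 to 1.87. With the *Gm28888* and *Gm29538* anchor at 238 kb the directions were the other way round, from 20 to 8.93 for FOXA1 and from 5.38 to 20 for HNF4G. With the *Gm19589* anchor at 142 kb, FOXA1 had 12.4 in tumor and 20 in liver mets, and HNF4G had 6.29 and 1.59. Through the upstream anchor, the loop at 274 kb was 5.34 and 5.01 for FOXA1, and the loop at 238 kb was 12.7 and 9.32 for FOXA1 and 20 in both HNF4G lists.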

How the results depend on the processing

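Of 85 recomputed values, 53 stayed within their interval, 31 moved beyond it and 1 changed direction. The loop counts, in the order FOXA1 in liver mets and tumor and HNF4G in liver mets and tumor, were 32, 28, 18 and 20 with the start anchor alone, 27, 25, 20 and 18 with the upstream anchor alone, and 24, 18, 16 and 22 with neighbouring partners merged. Restricted to a value of 2 or more they were 31, 27, 11 and 15, and to 4 or more 20, 16, 2 and 10. At an adjusted p of 0.05 or less, as the value was read, they were 51, 45, 33 and 35. These alternatives count fewer loops by construction. With partners merged, HNF4G tumor (22) had more than FOXA1 tumor (18), the reverse of the order in the main counts. The equal counts of the HNF4G lists became 16 in liver mets and 22 in tumor. The ratios were not recomputed with merged partners. The ratio of FOXA1 to HNF4G in liver mets changed from above 1 to 0.975 when divided by list size, and was 2.82 at a value of 2 or more and 10 at 4 or more. The liver mets to tumor ratio for HNF4G was 0.2 at 4 or more. The share of loops in all 4 lists was 36.6% when a value of at least 2 was asked of 1 list and 48.2% with anchors widened by 5 kb. The share running to lower coordinates was 87.1% at 2 or more and 100% at 4 or more in FOXA1 liver mets, 100% at 4 or more in HNF4G liver mets, and 93.3% and 100% in HNF4G tumor, and the median span at 4 or more in FOXA1 liver mets was 194 kb. The cause of these moves in share, span and ratio was not tested.

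No paired analysis was possible because the lists hold no value per replicate, and leaving out a replicate was not run for the same reason. With 2 loops at 4 or more in HNF4G liver mets, single loops decide that count. Depth, and with it the chance that a contact went unlisted, is unknown.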
